A study of Mus musculus with 12 samples.

Results

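Mesothelial genes were examined in RNA from mouse lung cell preparations enriched for epithelium. The set held 5 genes, Upk1b, Upk3b, Msln, Lrrn4 and Gpm6a, chosen by name, of 13518 genes present in all 3 deposited tables. The preparations came from C57BL/6 mice aged 8-10 weeks, in 4 groups of 3 libraries: LPS (lipopolysaccharide, a bacterial cell wall component that inflames the lung) at 2 mg/kg for 1 day, bleomycin (a DNA-damaging drug used to injure the lung and cause fibrosis) at 1.5 U/kg for 4 weeks, the same dose of bleomycin for 2 weeks, and saline. Every agent was instilled through the trachea. Digested lung was freed of red cells, stripped with beads of cells bearing CD16/32, CD45, CD31, CD90, Ter119 or PDGFRα, and cells bearing EpCAM were then kept. The preparation is labelled alveolar epithelial cells, and the labels leave unsaid whether each library is a separate mouse, so p-values measure only the spread between these libraries, which may be technical.

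The mesothelium is the single layer of flat cells that covers the lung surface as visceral pleura. Its cells carry keratins and junctions like an epithelium but arise from mesoderm, and they secrete the lubricating fluid of the pleural space. None of the antibodies in the isolation was directed at a mesothelial protein. Upk1b encodes a tetraspanin (a protein that spans the membrane several times) first known from the plaques of bladder epithelium. Upk3b encodes a plaque protein with a single membrane span and is widely used as a mesothelial marker. Msln encodes mesothelin, a lipid-anchored surface glycoprotein that binds the mucin Muc16. Lrrn4 encodes a membrane protein with leucine-rich repeats, and Gpm6a a proteolipid-family membrane protein best known from neurons.

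Levels are given as FPKM (fragment counts divided by transcript length and by the size of the library). Summed FPKM over the shared genes was 288890 to 403757 per library, read counts were not used here and the depth is unknown. Library 2 of the 4-week group stood apart: 6142 of 13518 genes (45.4%) were listed at 0 in it, and between 1 and 78 in any other library. Epcam itself was listed at 0 there. Lrrn4 and Gpm6a, also listed at 0 in it, may be failed estimates, so the 4-week group is given library by library and each of its results also without library 2. The column number of a further 4-week library matches none of the titles, so it is named the unnumbered library.

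All 5 genes are annotated as protein-coding, and their positions are given on mm10. Upk1b lies on chromosome 16 (38773184 to 38800203, minus strand), Upk3b on chromosome 5 (136038496 to 136046487, plus strand) and Msln on chromosome 17 (25748614 to 25754327, minus strand). Lrrn4 lies on chromosome 2 (132868305 to 132880891, minus strand) and Gpm6a on chromosome 8 (54954843 to 55060871, plus strand). In GENCODE M21, Upk1b, Upk3b, Msln and Lrrn4 overlap no other annotated gene, whereas Gpm6a overlaps 5 entries on its own strand that GENCODE marks as awaiting experimental evidence. Msln ends 284 bases from its relative Mslnl, which was not analysed here.

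RefSeq promoter sequences (GRCm38.p6) were matched for 3 of the 5 genes, Upk3b, Lrrn4 and Gpm6a. No promoter sequence was at hand for Upk1b and Msln, so the choice of genes shown follows availability and not their levels. The 250 bases before each start were searched on both strands. One motif was GGAATG, bound by TEAD factors, which are the DNA-binding partners of the coactivators YAP and TAZ. Another was GATAAG, bound by factors of the GATA family. The last was TATAAA, the core of the TATA box. Capitals mark GGAATG or its reverse complement. Each sequence is written 5′ to 3′ on the strand of its gene and ends at the base before the start.
Upk3b, chr5:136038246-136038495, plus strand: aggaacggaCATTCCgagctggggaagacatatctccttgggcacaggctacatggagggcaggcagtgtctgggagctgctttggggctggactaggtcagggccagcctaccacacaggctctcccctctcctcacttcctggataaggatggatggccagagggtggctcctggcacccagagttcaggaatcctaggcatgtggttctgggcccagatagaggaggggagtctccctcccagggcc
Lrrn4, chr2:132880863-132881112, minus strand: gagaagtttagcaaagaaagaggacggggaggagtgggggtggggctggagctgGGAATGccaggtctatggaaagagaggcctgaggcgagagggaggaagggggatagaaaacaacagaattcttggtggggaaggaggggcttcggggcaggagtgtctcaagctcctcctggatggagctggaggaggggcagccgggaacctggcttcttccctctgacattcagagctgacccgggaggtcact
Gpm6a near start, chr8:54954478-54954727, plus strand: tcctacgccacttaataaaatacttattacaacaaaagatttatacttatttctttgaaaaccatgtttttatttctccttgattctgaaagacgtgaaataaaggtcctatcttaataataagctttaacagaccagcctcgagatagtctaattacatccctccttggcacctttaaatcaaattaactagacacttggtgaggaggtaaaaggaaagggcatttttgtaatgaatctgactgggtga
Gpm6a far start, chr8:54779184-54779433, plus strand: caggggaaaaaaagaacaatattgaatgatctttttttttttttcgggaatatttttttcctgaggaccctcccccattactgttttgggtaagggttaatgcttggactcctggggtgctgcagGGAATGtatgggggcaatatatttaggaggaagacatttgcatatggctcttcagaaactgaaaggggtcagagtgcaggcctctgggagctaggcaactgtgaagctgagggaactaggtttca
Of these 4 windows 3 held 1 match each to GGAATG, starting 241 bases before the Upk3b start, 196 before that of Lrrn4 and 125 before the far start of Gpm6a, which lies 175409 bases before the deposited locus. The near start of Gpm6a, 115 bases before the locus, had no GGAATG and 1 TATAAA. Of 32851 mouse starts, 12.6% held it in the same window. The Upk3b window held 1 GATAAG, which 6.55% of starts held, and TATAAA was in 12.4% of starts. These matches describe letters and do not show binding.

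As a sum, the 5 genes were lowest after LPS. Summed over the 5 genes, the level was 33.8, 21.7 and 19.9 FPKM in LPS libraries 1, 2 and 3, 65.0, 45.1 and 81.3 FPKM in 4-week libraries 1, 2 and the unnumbered one, 51.5, 109 and 89.4 FPKM in 2-week libraries 1, 2 and 3, and 65.1, 108 and 67.0 FPKM in saline libraries 1, 2 and 3. All LPS libraries lay below every other library. As a share of Epcam, the sum was 94.5% to 130% in LPS libraries, 250% and 251% in the 4-week libraries that list Epcam above 0, 225% to 366% in 2-week libraries and 167% to 233% in saline libraries. In these bulk samples, fewer mesothelial cells, less RNA per cell and more RNA from other cells cannot be told apart. Which cells the RNA of the 5 genes came from was not tested.

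**Figure D1:**
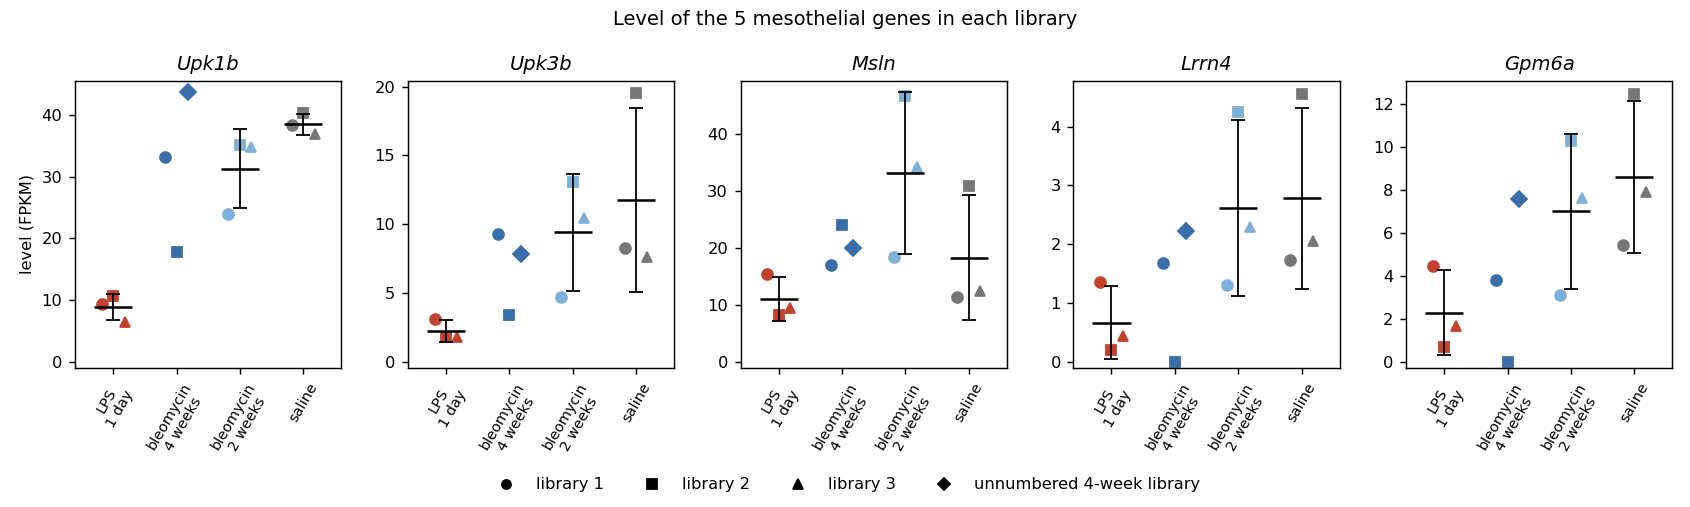
Level (FPKM, vertical axes from 0) of each gene in the 12 libraries, by group; marker shape gives the library number. Black bars are the mean and SD of the 3 libraries of a group and are left out for the 4-week group. Upk1b stands at 6.54 to 10.7 FPKM after LPS and at 36.9 to 40.2 FPKM in saline.

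Set against saline, Upk1b, Upk3b, Gpm6a and Lrrn4 fell 1 day after LPS and Msln did not pass the test. No time after instillation is recorded here for the saline libraries, which serve every comparison with saline. Effects of agent and of time cannot be told apart. Every fold change was computed on log2(FPKM + 1), which understates changes of low genes such as Lrrn4, and a gene was called at a limma adjusted p under 0.05. The 4 of 5 stand beside 25.9% of all 12456 genes tested that fell and 40.2% called in either direction. The median log2 fold change was -1.65 over the 5 genes and -0.22 over all genes tested.

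Upk1b had the highest level in saline and the smallest relative spread there. It was at 9.41, 10.7 and 6.54 FPKM in LPS libraries 1, 2 and 3, against 38.3, 40.2 and 36.9 FPKM in saline libraries 1, 2 and 3. The groups were far apart, and the log2 fold change was -2.02 ± 0.19 (SE, n = 3 each, limma adjusted p = 0.000156). Upk3b, the other uroplakin gene, was at 3.14, 1.82 and 1.81 FPKM in LPS libraries, against 8.25, 19.5 and 7.64 FPKM in saline libraries. Saline library 2 was more than 2-fold above its group, yet the lowest saline value exceeded the highest LPS value (log2 fold change -1.88 ± 0.33, limma adjusted p = 0.00307).

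Gpm6a was at 4.49, 0.712 and 1.69 FPKM in LPS libraries 1, 2 and 3, against 5.46, 12.5 and 7.93 FPKM in saline libraries. The groups did not overlap, but LPS library 1 came close to saline library 1 (log2 fold change -1.65 ± 0.42, limma adjusted p = 0.0147). Lrrn4, the least abundant of the set, was at 1.37, 0.206 and 0.435 FPKM in LPS libraries, against 1.73, 4.55 and 2.06 FPKM in saline libraries (log2 fold change -1.17 ± 0.32, limma adjusted p = 0.0193). Libraries did not overlap for 4 of the 5 genes, where 35.8% of genes tested were lower after LPS without overlap. The Lrrn4 and Gpm6a calls were lost without saline library 2 (limma adjusted p = 0.0604 and 0.0519) and without LPS library 3 (limma adjusted p = 0.0938 and 0.0771), and the Lrrn4 call without LPS library 2 (limma adjusted p = 0.0611). In the authors' deposited table only Upk1b had a q-value under 0.05 (0.0173).

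Msln, the mesothelin gene, was at 15.4, 8.29 and 9.38 FPKM in LPS libraries, against 11.3, 30.8 and 12.5 FPKM in saline libraries. LPS library 1 exceeded saline libraries 1 and 3, so the groups overlapped. The log2 fold change was -0.58 (95% interval -1.41 to 0.25, limma adjusted p = 0.227).

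After 2 weeks of bleomycin none of the 5 genes passed the limma test against saline, where 29.8% of 12725 genes tested did (11.8% lower), and none had an unadjusted p under 0.05. Upk1b was at 23.9, 35.1 and 34.9 FPKM in 2-week libraries 1, 2 and 3, each below the lowest saline value of 36.9 FPKM, as for 18.8% of genes tested (log2 fold change -0.31, 95% interval -0.66 to 0.04, limma adjusted p = 0.161). Upk3b was at 4.74, 13.1 and 10.4 FPKM in 2-week libraries, and its groups overlapped widely (limma adjusted p = 0.657). Gpm6a averaged 7.02 ± 3.61 FPKM at 2 weeks and 8.62 ± 3.55 FPKM in saline, and Lrrn4 2.62 ± 1.50 FPKM at 2 weeks and 2.78 ± 1.54 FPKM in saline (SD, n = 3 each). The 95% intervals of these log2 fold changes were -1.26 to 0.63 for Gpm6a and -0.92 to 0.77 for Lrrn4.

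Msln had the highest 2-week mean of the set. It was at 18.4, 46.6 and 34.1 FPKM in 2-week libraries 1, 2 and 3, and 2 of them exceeded every saline library. The log2 fold change was 0.87 (95% interval -0.16 to 1.90, limma adjusted p = 0.176). Without saline library 2 it was 1.31 (limma adjusted p = 0.0425).

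After 4 weeks of bleomycin, Upk1b, Lrrn4 and Gpm6a in library 1 lay below every saline library, and Upk3b and Msln within the saline range. In the unnumbered library Upk1b lay above every saline library and the other genes of the set within the saline range. Upk1b was at 33.2, 17.8 and 43.6 FPKM in 4-week libraries 1, 2 and the unnumbered one. Upk3b was at 9.30, 3.39 and 7.83 FPKM, Msln at 17.01, 24.0 and 20.0 FPKM, Lrrn4 at 1.67, 0 and 2.23 FPKM, and Gpm6a at 3.81, 0 and 7.61 FPKM in the same order. Library 2 was lowest for each gene other than Msln, for which it was highest. No gene of 12325 tested passed the limma test against saline (0%), 302 had an unadjusted p under 0.05, none of them a gene of the set, and the libraries overlapped for all 5 (26.3% of genes were lower without overlap). The authors' deposited table has 1 gene with a q-value under 0.05. Without library 2, 177 genes (1.44%) passed, none of the set, and the 5 log2 fold changes were -0.51 to 0.16, the lowest for Gpm6a and the highest for Msln, with limma adjusted p of 0.428 to 0.964.

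**Figure D2:**
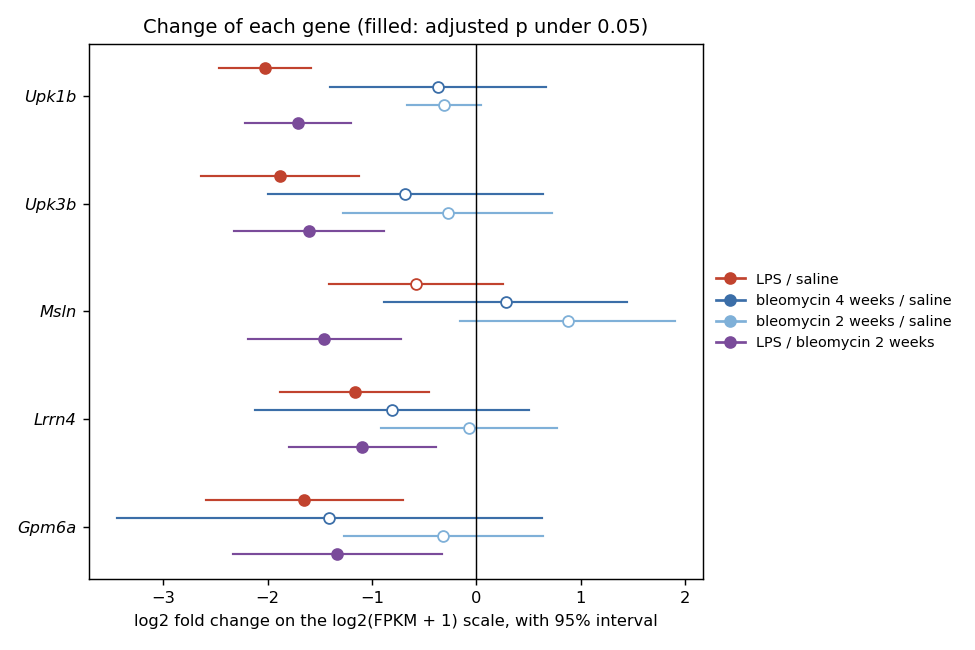
Log2 fold change of each gene (horizontal axis, on the log2(FPKM + 1) scale) with its 95% interval in 4 comparisons; filled points passed a limma adjusted p under 0.05. LPS is lower than saline for 4 genes and lower than 2 weeks of bleomycin for all 5, and no bleomycin interval against saline excludes 0.

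LPS was also set directly against 2 weeks of bleomycin. All 5 genes were lower after LPS, where 34.2% of 12488 genes tested were called and 23.8% were lower. Msln, which had not passed in either comparison with saline, was at 8.29 to 15.4 FPKM in LPS libraries and 18.4 to 46.6 FPKM in 2-week libraries (log2 fold change -1.45 ± 0.33, limma adjusted p = 0.00906). Upk1b (log2 fold change -1.71, limma adjusted p = 0.000557) and Upk3b (-1.61, 0.00517) also had libraries that did not overlap, as did 36.6% of genes tested that were lower after LPS. Lrrn4 (-1.09, limma adjusted p = 0.0253) and Gpm6a (-1.33, 0.0436) passed although 1 LPS library exceeded the lowest 2-week library. Their calls were lost without LPS library 2 (limma adjusted p = 0.0718 and 0.121), without LPS library 3 (0.128 and 0.167) and without 2-week library 2 (0.0919 and 0.149), that of Gpm6a also without 2-week library 3 (0.0923), and the Msln call without LPS library 3 (0.0692).

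Between LPS and 4 weeks of bleomycin no gene of the set passed with all 6 libraries, where 0.668% of 11973 genes tested did (0.0167% lower), and 1 of the 5, Upk1b, had an unadjusted p under 0.05 (limma, log2 fold change -1.65). Upk1b, Upk3b and Msln were lower without overlap, as were 6.91% of genes tested. Without 4-week library 2, Upk1b (log2 fold change -2.01, limma adjusted p = 0.000601) and Upk3b (-1.58, 0.00281) were lower after LPS, where 15.0% of 11876 genes tested were called and 7.22% were lower. Between 4 weeks and 2 weeks of bleomycin no gene of 12472 passed (0%, limma), 690 had an unadjusted p under 0.05 and none of the set did, nor was any of the set free of overlap (34.5% of genes were lower without overlap). Without library 2, 1155 genes (9.28%) passed, again none of the set, and Msln then had a log2 fold change of -0.71 (limma adjusted p = 0.195).

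By mean level, LPS was the lowest group for all 5 genes among the groups given as means. Upk1b, Upk3b, Lrrn4 and Gpm6a were ordered LPS, 2 weeks, saline, and Msln was ordered LPS, saline, 2 weeks. No step from 2 weeks to saline passed the test, and neither did the step from LPS to saline for Msln. For Upk1b the 2-week and saline libraries did not overlap, and for the other 4 genes they did. 4-week library 1 and the unnumbered library fell between the lowest and highest libraries of the 2-week and saline groups pooled for each of the 5 genes apart from Upk1b, whose unnumbered library was the highest of all 12.

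In saline and at 2 weeks, Upk3b, Msln, Lrrn4 and Gpm6a were high or low in the same libraries, and Upk1b varied less. In saline library 2, Msln was 2.59 times, Upk3b 2.46 times, Lrrn4 2.40 times and Gpm6a 1.86 times the mean of the other two saline libraries, against 1.07 times for Upk1b. Of 12391 genes with at least 1 FPKM on average in saline, 0.799% had a ratio as high as that of Gpm6a, and 29.6% one as high as that of Upk1b. In 2-week library 1 the same 4 genes were at 0.349 to 0.456 times the mean of the other two libraries, and Upk1b at 0.684 times. At most 0.856% of genes were as low as any of the 4, and 5.17% as low as Upk1b. In LPS library 1 Lrrn4 was 4.26 times and Gpm6a 3.74 times the mean of the other two, which 0.597% and 0.904% of genes reached. Upk3b at 1.73 times and Msln at 1.74 times were not unusual there, since 17.8% and 17.6% of genes were as high, and Upk1b was at 1.09 times. At 4 weeks Upk3b was higher in library 1 than in the unnumbered library, and Msln, Lrrn4 and Gpm6a were lower.

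Each gene was also divided by Upk3b of the same library, which sets aside variation that the gene shares with Upk3b. Upk1b did not share it in saline, where its ratio to Upk3b was 4.64, 2.06 and 4.83 in libraries 1, 2 and 3. The Msln to Upk3b ratio of FPKM was 4.90, 4.56 and 5.20 in LPS libraries 1, 2 and 3, against 1.37, 1.58 and 1.63 in saline libraries 1, 2 and 3. It was 3.88, 3.57 and 3.27 in 2-week libraries and 1.83, 7.06 and 2.56 in 4-week libraries 1, 2 and the unnumbered one. All 9 treated libraries lay above all 3 saline libraries, with LPS above 2 weeks. The ratio was 3.20-fold higher after LPS, 2.11-fold higher at 4 weeks and 2.34-fold higher at 2 weeks than in saline (geometric means, n = 3 each). In each case the exact two-sided permutation p was 0.1, the smallest that 3 against 3 libraries can give, and 0.256 after Benjamini-Hochberg adjustment over the 23 ratio tests run. Without 4-week library 2 the 4-week difference in log2 ratio was 0.51, against 1.07 with it.

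How unusual this ratio was depended on the comparison. After LPS, 87.4% of 12391 genes had a ratio to Upk3b above saline without overlap, Upk3b itself being among the genes that fell. At 2 weeks 6.2% and at 4 weeks 4.18% of genes did. In all 9 treated libraries 0.977% of genes were above every saline library, and in the 8 without 4-week library 2 this was 2.5%. Against Lrrn4 the Msln level was 11.2, 40.3 and 21.5 times in LPS libraries, 14.1, 10.97 and 14.9 times in 2-week libraries and 6.54, 6.78 and 6.06 times in saline libraries. All 4 ratios of Msln to another gene of the set were higher without overlap both after LPS and at 2 weeks, each against saline. These ratios share Msln, and Upk1b, Gpm6a and Lrrn4, like Upk3b, fell after LPS. The share of all genes was computed only for ratios to Upk3b. Msln to Upk1b was barely apart, at 0.775 in LPS library 2 and 0.770 in 2-week library 1, against 0.766 in saline library 2. None of the 6 ratios that leave Msln out separated any treatment from saline, and their fold differences after LPS and at 2 weeks were 0.835 to 1.15. Some spread widely within a group, such as Gpm6a to Upk3b at 0.392 to 1.43 in LPS libraries, which limits what their overlap can show. A ratio shows unequal change between the pair and does not say which gene moved.

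**Figure D3:**
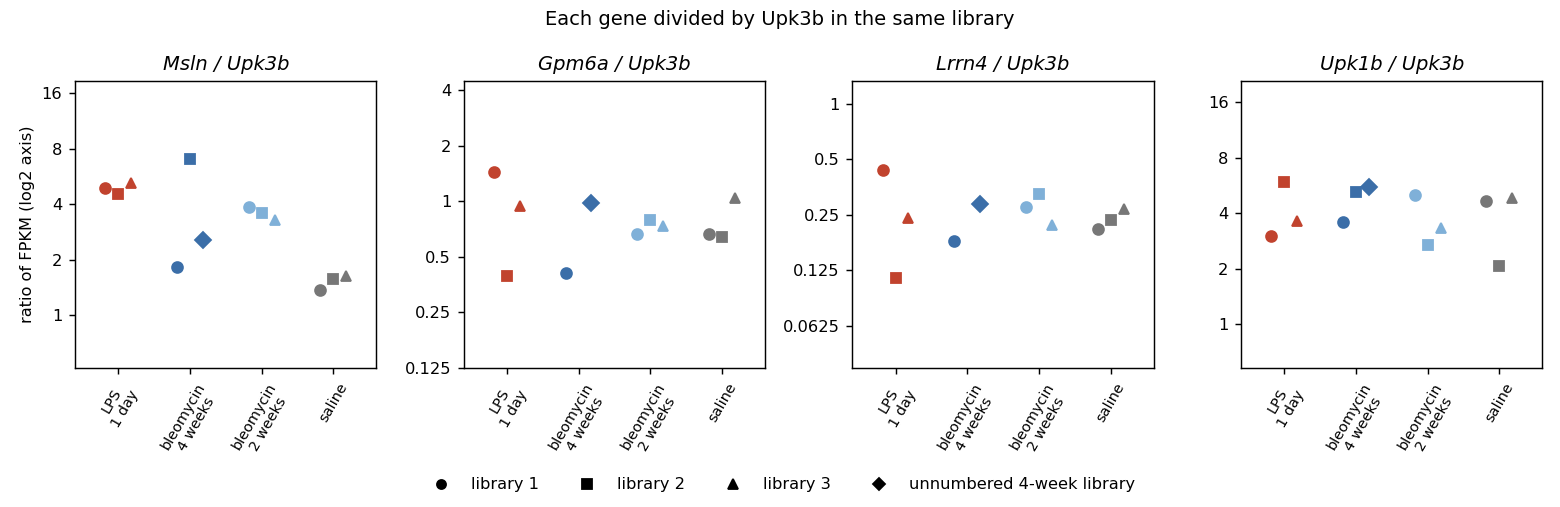
Msln, Gpm6a, Lrrn4 and Upk1b divided by Upk3b in the same library (ratio of FPKM, log2 vertical axes that each span the same number of doublings); values of 0 in 4-week library 2 are not drawn. The Msln ratio spans 4.56 to 5.20 in LPS libraries, 3.27 to 3.88 in 2-week libraries and 1.37 to 1.63 in saline libraries, while the other ratios overlap between groups.

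Other genes known from mesothelium were taken as a list of 20, of which 14 were tested after LPS. Wt1, Bnc1, Muc16 and Calb2 were on the list but not among the genes present in all 3 deposited tables, so no level is given for them. Those tables hold no gene that averaged below 0.5 FPKM in both groups. After LPS 6 of 14 fell, against 25.9% of all genes tested, and 2 of 14 rose, against 1770 of 12456 genes, a like share. Their median log2 fold change was -0.40, against -0.22 over all genes tested. Their summed level was higher after LPS, at 1263 to 1513 FPKM, than in saline, at 964 to 1116 FPKM. C3 alone was at 476 to 707 FPKM after LPS and 239 to 307 FPKM in saline. The fallers were Cldn15, a claudin of tight junctions (log2 fold change -1.01, limma adjusted p = 0.0276), Rspo1, a secreted enhancer of Wnt signalling (-0.88, 0.0223), Nkain4, which encodes a partner of the sodium pump (-1.07, 0.00586), and Efemp1 (-2.05), Igfbp6 (-1.25) and Gas1 (-1.71), which fibroblasts also express. The risers were Slpi, an antiprotease gene (3.26), and C3, the central complement gene (1.06), both also made by other lung cells. At 2 weeks 4 of 15 fell, Rarres2, Efemp1, Krt19 and Igfbp6, and 2 rose, Gas1 and the complement factor I gene Cfi (1.21), where 11.8% of all genes fell and 2290 of 12725 rose. The list's median was -0.09, against 0.05 over all genes tested. At 4 weeks none of 14 passed (limma). Dmkn, Rarres2, Krt19, Podxl and Crip1, also on the list, did not pass after LPS. Itln1, listed too but too low for the test, went the other way from the set. It was at 0 FPKM in every saline library, 0.645 to 0.931 FPKM in LPS libraries and 0.456 to 0.559 FPKM in 2-week libraries.

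Of the 14 other mesothelial genes in all tables, 9 were highest in saline library 2 among the saline libraries, 2 (Podxl and Slpi) were lowest there and 3 lay between. Over 12391 genes, 33.0% were highest there and 35.2% lowest. Cldn15, Rspo1, Aldh1a2 and Nkain4 are described next, picked after their values were seen. In saline library 2, Cldn15 was 2.60 times, Rspo1 1.97 times and Aldh1a2 1.86 times the mean of saline libraries 1 and 3. Nkain4 was less raised there, at 1.50 times. In 2-week library 1, Cldn15, Rspo1 and Aldh1a2 were at 0.439 to 0.554 times the mean of 2-week libraries 2 and 3. Nkain4 was at 0.771 times, and 13.4% of genes were as low. Its ratio to Upk3b varied in saline, at 1.66 and 1.27 in libraries 1 and 3 and lower in library 2. Cldn15 kept close to Upk3b in saline, at ratios of 0.287, 0.301 and 0.280, and was at 0.351, 0.340 and 0.301 in 2-week libraries and 0.516, 0.431 and 0.496 in LPS libraries. Aldh1a2, the gene of a retinoic acid synthesis enzyme, had a ratio to Upk3b of 2.85, 2.20 and 2.65 in LPS libraries, 1.44, 1.18 and 1.05 in 2-week libraries, and 0.704, 0.611 and 0.919 in saline libraries. Its own level did not pass against saline after LPS (log2 fold change -0.43, limma adjusted p = 0.291) or at 2 weeks (0.38, 0.413).

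**Figure D4:**
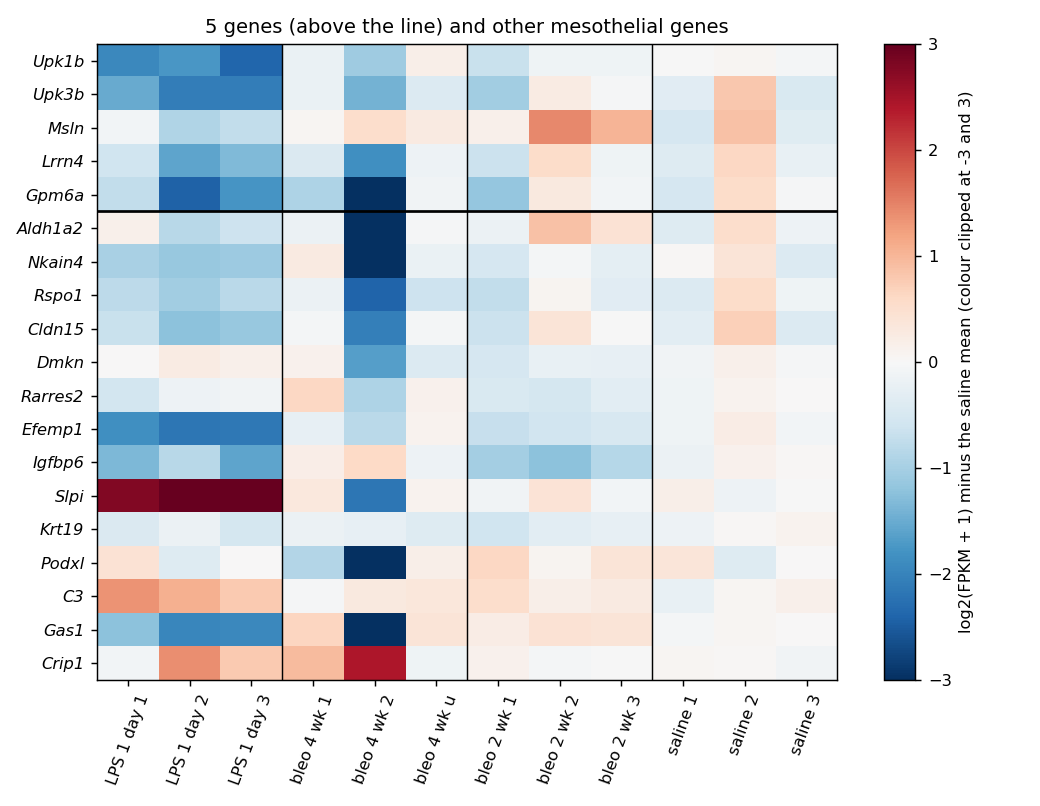
Level of the 5 genes and of 14 other mesothelial genes in each library, as log2(FPKM + 1) minus the mean of saline (colour scale, blue lower, red higher, clipped at -3 and 3); u is the unnumbered 4-week library. Upk1b, Upk3b and Gpm6a are blue in every LPS library, and 4-week library 2 is dark blue for many genes listed at 0.

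Relatives by protein family were taken as a pair of lists, with 4 uroplakins and tetraspanins and 2 relatives of Gpm6a, Lrrn4 and Msln tested after LPS. Of the other uroplakin genes, Upk1a was at 0.205 to 0.529 FPKM after LPS and 0.576 to 1.22 FPKM in saline and Upk2 at 0 to 0.495 FPKM after LPS and 0.624 to 1.25 FPKM in saline, too low for the test. Upk3a, also too low for the test against saline, was higher without overlap at 2 weeks, at 0.890 to 1.13 FPKM against 0.316 to 0.635 FPKM in saline, and was at 2.55, 0 and 1.75 FPKM in 4-week libraries 1, 2 and the unnumbered one. Of the related tetraspanins, Tspan8, Tspan13 and Tspan15 fell after LPS (log2 fold change -1.02 to -0.79) and Tspan1 had a log2 fold change of -0.24 (limma adjusted p = 0.241). Lrrn3, a relative of Lrrn4, fell after LPS (log2 fold change -1.20, limma adjusted p = 0.000878), and at 2 weeks (-0.40, limma adjusted p = 0.0147). Lrrn2 rose at 2 weeks (1.13, limma adjusted p = 0.000308). Gpm6b, the closest relative of Gpm6a, was at 6.85, 7.19 and 5.46 FPKM in LPS libraries, against 7.66, 18.6 and 5.06 FPKM in saline libraries, with saline library 2 again high (limma adjusted p = 0.372).

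The genes most like the set were sought among 7589 genes with at least 5 FPKM on average in saline, by Pearson correlation on log2(FPKM + 1) over 11 libraries, leaving out 4-week library 2. The libraries share their groups and totals, so these values only describe. Upk1b was closest to Gata5, the gene of a GATA transcription factor (r = 0.984), which stood at 1.95, 2.30 and 0.837 FPKM after LPS and at 5.70, 5.61 and 5.39 FPKM in saline and fell (log2 fold change -1.33, limma adjusted p = 0.00277). Msln was closest to Aldh1a2 (r = 0.952), Upk3b to Cyp2a5, a cytochrome P450 gene (0.956), Lrrn4 to Ppil4 (0.958) and Gpm6a to Uhrf1bp1l (0.961). Closest to the mean of all 5 were Ppil4, Cep19, 2610301B20Rik, Igip, Acox2, Zfp706, Atxn7l3b and Cbx5 (r = 0.949 to 0.968), and 114 genes reached at least 0.9.

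Markers of other cell types were counted in the same comparisons. Over all 12456 genes tested after LPS, 25.9% fell and 1770 rose. After LPS, 9 of 11 AT2 (surfactant-making alveolar cell) markers fell and 0 rose (median log2 fold change -1.26), as did 5 of 10 AT1 (flat alveolar cell) markers, where 1 rose (-0.74), 4 of 6 club (airway secretory) cell markers, where 1 rose (-1.69), and 11 of 12 keratin and junction genes, where 0 rose (-1.19). Of 12 fibroblast markers 7 fell and 1 rose (-0.77), of 10 endothelial markers 3 fell and 0 rose (-0.54, a share near that of all genes), of 8 smooth muscle and pericyte markers 4 fell and 0 rose (-0.70), and of 8 ciliated cell markers 6 fell and 0 rose (-0.57). Of 13 leukocyte markers 9 rose and 1 fell (2.35), and their summed level was 5683 to 11126 FPKM after LPS and 4400 to 4812 FPKM in saline. Summed fibroblast markers were at 1312 to 1923 FPKM after LPS and 4754 to 5349 FPKM in saline, and no marker of either list was at 0 in all libraries of a group. The part of these cells in the mesothelial result was not tested.

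At 2 weeks, where 11.8% of genes tested fell and 2290 of 12725 rose, 10 of 11 AT2 markers fell (median log2 fold change -1.71), and 7 of 12 fibroblast markers rose and 2 fell (0.62), and the 5 mesothelial genes had a median of -0.28 against 0.05 over all genes tested. Epcam, the gene of the protein used for selection, averaged 23.2 ± 2.65 FPKM in LPS libraries, 27.7 ± 4.19 FPKM in 2-week libraries and 41.3 ± 4.21 FPKM in saline libraries (SD, n = 3 each), and fell both after LPS (limma adjusted p = 0.00584) and at 2 weeks (limma adjusted p = 0.0166). Of the genes of the depleted surface proteins, Thy1 (CD90) and Fcgr3 (CD16) rose after LPS (log2 fold change 0.94 and 3.20) and at 2 weeks (1.42 and 2.06), and Ptprc, Pecam1 and Pdgfra passed in neither (limma). RNA of the depleted proteins was still present. In saline Pecam1 averaged 62.6 and Pdgfra 49.8 FPKM, above Epcam, and Fcgr3 11.9, Thy1 11.7 and Ptprc 6.32 FPKM, below it. After LPS Fcgr3 averaged 118.9, Pecam1 57.1 and Pdgfra 34.8 FPKM, above Epcam, and Thy1 23.0 and Ptprc 9.77 FPKM, below it.

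**Figure D5:**
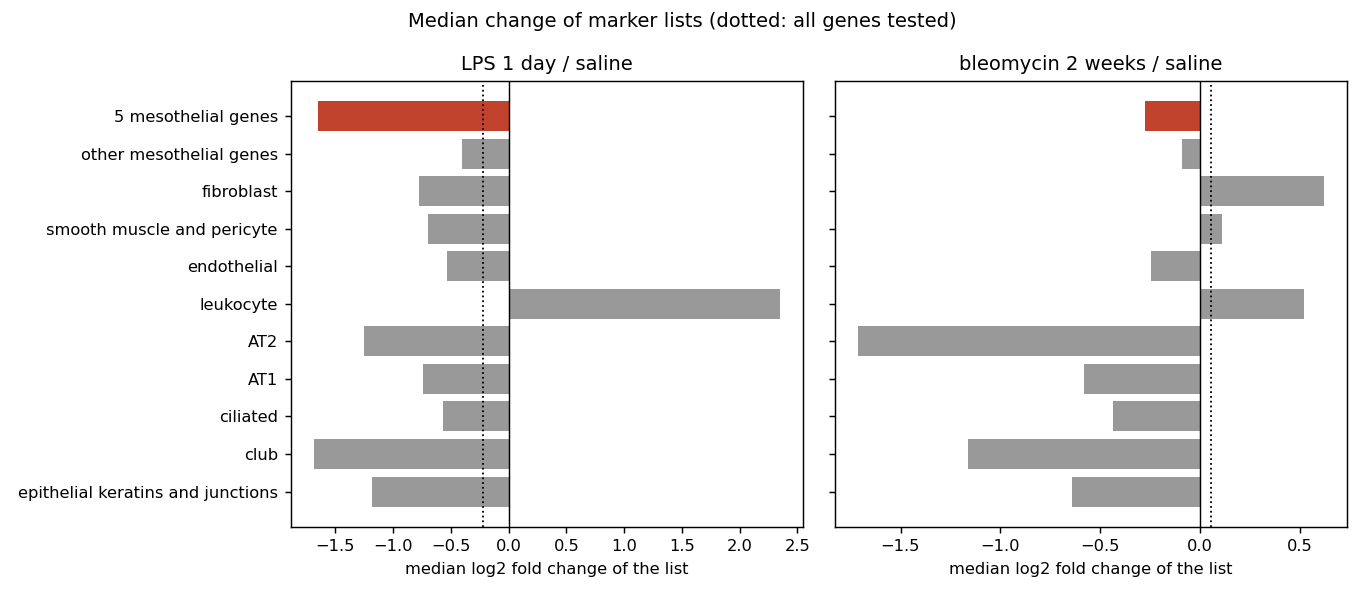
Median log2 fold change of each marker list (horizontal bars from 0, log2(FPKM + 1) scale) after LPS (left) and 2 weeks of bleomycin (right), each against saline; the dotted line is the median of all genes tested. The 5 mesothelial genes are at -1.65 after LPS and at -0.28 at 2 weeks.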

How the data were processed

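RNA was measured in 12 libraries of 4 groups, assigned by sample title. The authors deposited 3 tables, one per treatment with saline, holding FPKM per library per the file headers. Columns headed as group FPKM hold log2 means, judged from the values with 1 added, and the deposited fold ratio and log2 fold change derive from their difference. The p-value and q-value are the authors' own, by a method not given in the sources used here. HISAT2, StringTie and mm10 are named per the submitters' processing notes, without versions. The 3 tables repeat the same saline values, and no gene averaged below 0.5 FPKM in both groups of its table. 1 line per table had been emptied.

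Each pair of groups was fitted alone with limma 3.58.1 in R 4.3.3 (two-sided, with a mean-variance trend) after taking log2(FPKM + 1). Genes needed 1 FPKM in 3 or more libraries, with Benjamini-Hochberg adjustment over all genes tested. The procedure was run on simulated data with levels set above the measured ones, so it was not tried at levels as low as that of Lrrn4. The 3 comparisons with saline share its libraries. Ratios between genes were tested with exact permutations (scipy 1.17.1) and were added after seeing the data. Alternatives were pseudocounts of 0.1 and 0.5, other filters, scalings, joint fits, a replicate block and leaving out each library. The members and lists were chosen with earlier results of these data known. Named genes were the members, Epcam, the genes of the depleted surface proteins, genes of the 3 mesothelial and family lists with at least 1 FPKM in 3 libraries, and those most alike by correlation; Upk1a was named after its values were seen.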

Additional observations from a re-analysis of the deposited data

How the results depend on the processing

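The direction of each fall called against saline after LPS held under every alternative run, and the number of genes of the set called was 4, with 3 among genes of at least 5 FPKM (Lrrn4 is then not tested), 2 in 1 fit of 12 libraries, 1 by the authors' q-values and 2 to 4 when single libraries were left out. For LPS against 2 weeks of bleomycin the number was 5, with 2 among genes of at least 5 FPKM (where fewer of the set are tested), 3 with median-ratio scaling, 3 with quantile normalization, 1 in the fit of 12 libraries and 2 to 5 without single libraries. In that comparison the Gpm6a call was lost in 8 settings, that of Lrrn4 in 6, that of Msln in 2 and that of Upk3b in 1. For LPS against 4 weeks it was 0, with 2 after quantile normalization, 1 in the fit of 12 libraries, 2 in the fit of 11 libraries without 4-week library 2, and 0 to 2 without single libraries. At 2 weeks against saline it was 0, with 0 to 1 without single libraries, and it was 0 throughout for 4 weeks against saline and against 2 weeks.

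Same-numbered libraries did not deviate together in every pair (correlations of -0.153 to 0.271), so numbers were not taken to pair them; with the replicate number as a block 1 gene of the set, Msln, passed at 2 weeks against saline (limma adjusted p = 0.0238), and counts of the set in the other comparisons stayed at 4, 5 or 0.

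Uncalled changes crossed 0 under some settings. Against saline at 2 weeks, Lrrn4 (-0.07) was 0.042 with equal totals, and without single libraries Lrrn4 was -0.38 to 0.24, Upk3b -0.54 to 0.12 and Gpm6a -0.62 to 0.10. Upk1b at 4 weeks against saline was 0.025 with median-ratio scaling. Between 4 and 2 weeks, Upk1b was 0.40 with median-ratio scaling, 0.30 with quantile normalization, 0.30 in the fit of 11 libraries and -0.33 to 0.30 without single libraries, and Upk3b 0.30 with quantile normalization. Between LPS and 4 weeks, Gpm6a was 0.38 with a pseudocount of 0.1, 0.48 with the replicate block and -1.13 to 0.42 without single libraries, and Lrrn4 0.047 with the replicate block. The cause was not tested.

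Counts over all genes moved more: 5002 genes called for LPS against saline were 669 in the fit of 12 libraries and 6693 without LPS library 1, 3786 at 2 weeks were 134 in the fit of 12 libraries, and 4273 for LPS against 2 weeks were 484. For LPS against 4 weeks, 80 genes became 4044 in the fit of 11 libraries. After LPS all genes had a median of -0.22 on the log2 scale, which was -0.37 with equal totals and 0.00 with median-ratio scaling. Of the 8 genes most like the set, 1 stayed with all 12 libraries and 4 with a floor of 1 FPKM. The Msln to Upk3b log2 ratio after LPS, 1.68, was 1.30 with 1 FPKM added to both genes.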
